A study of Homo sapiens with 4 samples.

Results

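The SLC25 family holds the mitochondrial carriers, membrane proteins that move nucleotides, phosphate, amino acids, carboxylic acids, cofactors and metals across the inner mitochondrial membrane. Its members were taken as every table entry named SLC25A followed by a number alone. This gave 48 genes of the 23615 in the table, and all 48 symbols matched a RefSeq gene. In the 2 RIP (RNA immunoprecipitation) libraries, RNA was recovered from the Flag-SIRT7 complex on an anti-Flag M2 affinity gel. The 2 input libraries held total RNA. Both came from HEK293T, a human embryonic kidney line, stably overexpressing Flag-SIRT7, so all 4 libraries carry the transgene, and cells without it were not analysed here. RNA that sticks to the gel without SIRT7 is therefore not told apart from RNA held by SIRT7. Ribosomal RNA was removed in both groups. Whether replicates were separate cultures is not in the labels, so p-values cover only the spread between these libraries, which may be technical.

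Carriers of this family are built from repeated pairs of membrane helices and swing between a state open to the matrix and a state open to the intermembrane space. They are encoded in the nucleus and translated in the cytosol, and nearly all are inserted by the TIM22 translocase after passage with small TIM chaperones. In proliferating cells the ADP/ATP and phosphate carriers serve oxidative phosphorylation, and the citrate carrier exports carbon for lipid synthesis. SIRT7, the bait, is a deacylase of the nucleus and nucleolus. The study asked which RNAs are bound to it.

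The libraries held 25655455 and 25998032 fragments in RIP, and 18131602 and 17310753 in input. SIRT7 mRNA itself, transgene and endogenous gene together, stood at 43950 and 43200 CPM in RIP, against 1148 and 1181 CPM in input. CPM are counts scaled to library sizes that include the TMM factor. All 6 markers chosen for HEK293T, among them VIM and LIN28B, were above the count filter and summed to 1040 and 1061 CPM in RIP and 797.2 and 842.2 CPM in input. VIM made up most of that sum, at 757.8 and 778.2 CPM in RIP and 446.2 and 499.2 CPM in input, while LIN28B (-1.43), NEFL (-1.04) and NES (-1.67) were lower on the log2 scale. The 14 markers of other cell types summed to 3.21 and 4.51 CPM in RIP and 2.30 and 2.53 CPM in input, with 6 of them at 0 throughout. Their part in the results was not tested. Transcript length moved with the RIP values across all genes (Spearman rho = -0.601 between fold change and effective length over 14555 genes, which are not independent replicates). For most carriers the log2 fold change, RIP over input, is therefore also given from a fit with that trend taken out, called length-corrected.

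Of the 48 carriers, 42 passed the filter on low counts. By edgeR's quasi-likelihood test, 24 were higher in RIP and 14 were lower at an adjusted p under 0.05, and 4 passed in neither direction. These are 57.1% and 33.3% of the tested carriers, against 38.0% called higher and 39.7% called lower over all 14555 tested genes. In either direction 77.7% of all tested genes were called, so a call alone says little about a carrier. A fold change here measures recovery on the gel relative to input of the same line. In the input level itself, fewer cells with an mRNA and less of it per cell cannot be told apart. At least 2-fold rises were found for 11 carriers (26.2%, against 17.5% of all tested genes) and at least 2-fold falls for 4 (9.52%, against 19.1%). The median log2 fold change of the tested carriers was 0.36, with quartiles of -0.49 and 1.07. The median over all tested genes was -0.03. With the length trend taken out, 18 carriers were higher and 12 lower, or 42.9% and 28.6%. The shares of all genes were then 33.6% and 34.6% (68.2% in either direction), the carrier median 0.13 and that of all genes -0.03. At least 2-fold changes were then 6 higher and 6 lower (14.3% each), against 8.82% and 11.8% of all genes. Of the 24 carriers called higher, 17 stayed so after length correction, 6 lost the call and SLC25A14 turned to lower. Of the 14 called lower, 11 stayed so and 3 lost the call. SLC25A12 gained a call as higher.

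Directions depend on the scale on which libraries are set level. Scaled by library totals alone, without TMM factors, the median of all genes was -0.76, and 13 carriers were higher and 22 lower. Of all genes 17.0% were then higher and 65.5% lower (82.6% in either direction). At least 2-fold changes were 2 higher and 14 lower among carriers (4.76% and 33.3%), against 5.27% and 41.7% of all genes. The carrier median was -0.37, above that of all genes. Non-overlap of the 2 groups says little here: it held for 39 of 42 tested carriers (92.9%) and for 89.2% of all tested genes.

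**Figure D1:**
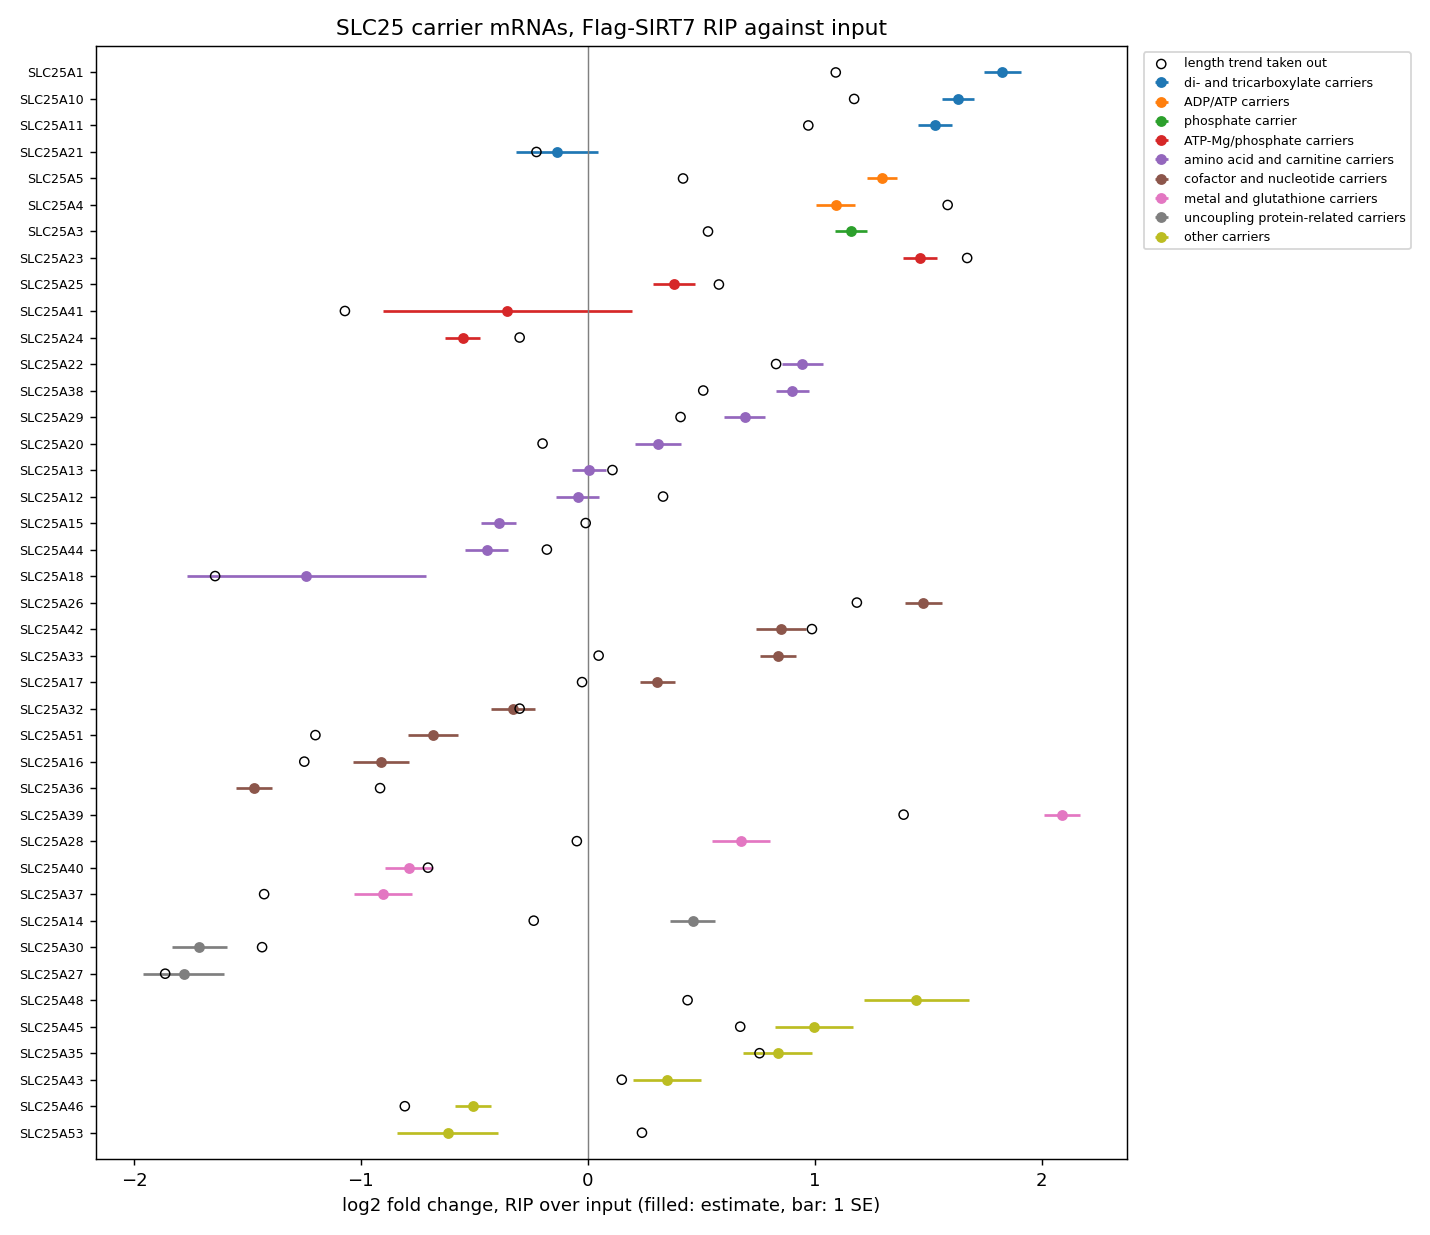
Log2 fold change of 41 tested carriers, RIP over input, grouped by what they carry; filled points are edgeR estimates with bars of 1 SE (2 libraries a group), open circles the values with the length trend taken out. Of the filled points SLC25A39 lies farthest right at 2.09 and SLC25A27 farthest left at -1.78.

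The carriers of di- and tricarboxylic acids held 3 of the 6 largest rises. SLC25A1, the citrate carrier that exports citrate for fatty acid and sterol synthesis, stood at 426.6 and 428.7 CPM in RIP, against 110.4 and 130.8 CPM in input. Both RIP libraries lay far above both input libraries, and the gene rose 3.55-fold (log2 1.83, SE 0.0817, edgeR adjusted p = 1.446e-11; length-corrected 1.09). SLC25A10, the dicarboxylate carrier, which exchanges malate or succinate for phosphate, had 273.1 and 262.5 CPM in RIP and 83.5 and 89.4 CPM in input. It rose 3.10-fold (log2 1.63, SE 0.0716, edgeR adjusted p = 1.201e-11; length-corrected 1.17). SLC25A11, the oxoglutarate carrier of the malate-aspartate shuttle, had 349.9 and 319.9 CPM in RIP and 110.1 and 121.8 CPM in input, a 2.89-fold rise (log2 1.53, SE 0.0768; length-corrected 0.97). The groups did not overlap for any of these 3 genes, as was so for 89.2% of all tested genes. All 3 also kept a call as higher with library totals, where they stood at 1.10, 0.90 and 0.80. SLC25A21, the oxodicarboxylate carrier, was scarce. It had 6.33 and 4.56 CPM in RIP, on both sides of the 5.87 and 6.11 CPM in input, and was not called (log2 -0.14, 95% interval -0.49 to 0.22, edgeR adjusted p = 0.4966; length-corrected -0.23). With library totals it was called lower, at -0.87 (edgeR adjusted p = 0.0004506).

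SLC25A39, which is needed for glutathione uptake into mitochondria, showed the largest rise of the family. It stood at 587.7 and 594.4 CPM in RIP, against 128.9 and 148.6 CPM in input. The change was 4.26-fold (log2 2.09, SE 0.0786, edgeR adjusted p = 2.89e-12; length-corrected 1.39), higher than that of 97.6% of all tested genes. Its paralogue SLC25A40 moved the other way, with 11.6 and 11.3 CPM in RIP and 19.8 and 19.7 CPM in input (log2 -0.79, SE 0.106, edgeR adjusted p = 5.285e-06; length-corrected -0.70). The mitoferrins, which bring iron into the matrix, were split in the uncorrected fold change. SLC25A28 (mitoferrin 2) had 15.96 and 14.3 CPM in RIP and 8.63 and 10.4 CPM in input, a log2 fold change of 0.68 that came to -0.05 with length correction and -0.05 with library totals, neither past the threshold. SLC25A37 (mitoferrin 1), known for its role in erythroid cells, had 7.88 and 8.58 CPM in RIP and 14.4 and 16.4 CPM in input. It was lower by every scale used here, at -0.90 (SE 0.127, edgeR adjusted p = 8.325e-06), -1.43 after length correction and -1.63 with library totals.

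The ADP/ATP carriers exchange ATP made in the matrix for cytosolic ADP. FPKM are the authors' values per transcript length, scaled by 1 factor per library and not by library totals. SLC25A5, the form of proliferating cells, was the most abundant carrier mRNA per length. It had 1147 and 1148 FPKM in RIP and 458.5 and 464.3 FPKM in input. In CPM it stood at 1410 and 1414 in RIP, against 576.2 and 572.9 in input. Replicates lay close together in both groups, and the rise was 2.46-fold (log2 1.30, SE 0.0669, edgeR adjusted p = 6.826e-11; length-corrected 0.42, adjusted p = 4.156e-05). SLC25A4, the form of heart and skeletal muscle, was far less abundant, at 20.9 and 18.0 FPKM in RIP and 8.82 and 9.22 FPKM in input. Its CPM were 94.2 and 81.5 in RIP and 40.7 and 41.7 in input, a 2.13-fold rise (log2 1.09, SE 0.0839). SLC25A4 has a long transcript, 1.57 times the median gene, against 0.428 times for SLC25A5, and its length-corrected value was 1.59. The order of the 2 rises therefore turns with the correction. SLC25A5 has many close copies in the genome, and the counting of multi-position reads is not stated, so its counts are uncertain to that extent. The antisense entry SLC25A5-AS1 had 6.33 and 6.10 CPM in RIP and 4.76 and 4.61 CPM in input. The libraries were strand-specific, but whether the counting used strand is not given, so sense and antisense reads may not be separated.

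SLC25A6, the remaining ubiquitous ADP/ATP carrier gene, was listed at 0 fragments in all 4 libraries. It lies in the pseudoautosomal region that the X and Y chromosomes share. Of the 10 protein-coding genes nearest to it in RefSeq order (GRCh38.p14) that the table holds, 9 were also at 0 in all libraries, among them AKAP17A and DHRSX, and SHOX had 1 to 3 fragments. The 0 is therefore given as listed and not as a level of the mRNA. SLC25A31, a form of the germ line, had 1 and 4 fragments in RIP and none in input, where a count of 0 allows up to 3 fragments (0.166 and 0.173 CPM on library totals). It was not tested, and no change was detectable at this depth.

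SLC25A3, which imports phosphate for the ATP synthase, ranked second per length, at 538.9 and 541.1 FPKM in RIP and 227.1 and 251.2 FPKM in input. In CPM it had 861.9 and 866.5 in RIP, against 371.3 and 402.6 in input (2.23-fold, log2 1.16, SE 0.07, edgeR adjusted p = 4.203e-10; length-corrected 0.53). The calcium-regulated carriers that exchange ATP-Mg for phosphate went different ways. SLC25A23 was higher, with 177.4 and 179.3 CPM in RIP and 60.7 and 68.7 CPM in input (2.76-fold, log2 1.46, SE 0.0763, edgeR adjusted p = 7.647e-11). Its transcript is longer than that of the median gene, and the length-corrected value was 1.67, the highest among all tested carriers. SLC25A25 was slightly higher, at 37.4 and 33.2 CPM in RIP and 26.3 and 28.0 CPM in input (log2 0.38, length-corrected 0.58, but -0.35 with library totals). SLC25A24 was lower, at 49.2 and 54.8 CPM in RIP and 75.4 and 77.1 CPM in input (log2 -0.55, edgeR adjusted p = 9.177e-06; length-corrected -0.30). The testis-type SLC25A41 had 5 and 8 fragments in RIP and 10 and 9 in input and passed no test.

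**Figure D2:**
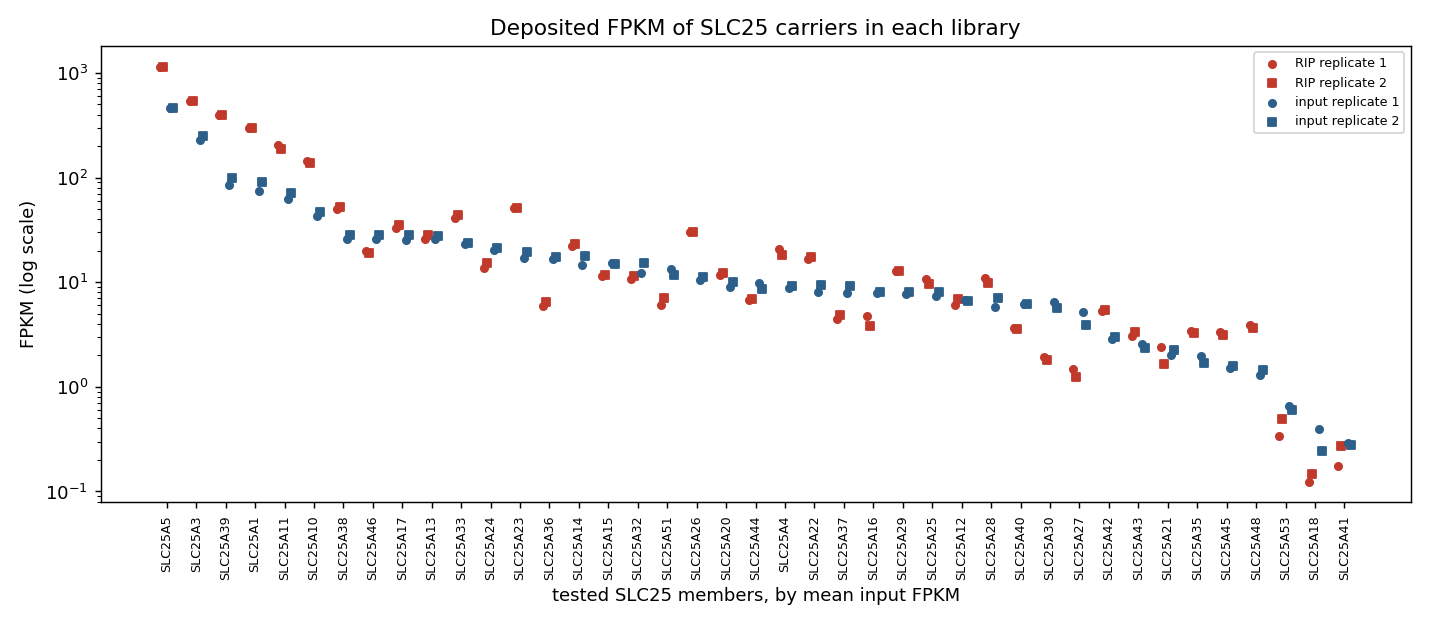
Deposited FPKM (log axis) of 41 tested carriers in each library, ordered by mean input FPKM; red points are the 2 RIP libraries and blue points the 2 input libraries, a circle for replicate 1 and a square for replicate 2. For the 6 most abundant carriers both RIP points lie above both input points, while for carriers further right they lie on either side.

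Uncoupling protein-related carriers gave the 2 largest falls. SLC25A27, known as UCP4 and first described in brain, had 4.02 and 3.42 CPM in RIP, against 14.7 and 10.8 CPM in input. It fell by 1.78 on the log2 scale (SE 0.179, edgeR adjusted p = 1.902e-07), and stood at -1.86 after length correction. SLC25A30, also called kidney mitochondrial carrier protein 1, had 7.18 and 6.74 CPM in RIP and 24.4 and 21.2 CPM in input (log2 -1.71, SE 0.122, edgeR adjusted p = 2.945e-09; length-corrected -1.44). Their lengths were 0.96 and 1.29 times that of the median gene. SLC25A14, a further relative, was higher at 32.8 and 34.6 CPM in RIP and 22.3 and 26.7 CPM in input (log2 0.46). It turned to -0.24 (adjusted p = 0.04357) with length correction and to -0.27 (adjusted p = 0.01991) with library totals, so its direction depends on the scale.

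Of the 9 tested carriers of cofactors and nucleotides, 5 were higher and 4 lower (55.6% and 44.4%, against 38.0% and 39.7% of all tested genes). After length correction 3 were higher and 4 lower (33.3% and 44.4%, against 33.6% and 34.6% of all genes). With library totals the shares were 22.2% and 55.6%, against 17.0% and 65.5%. SLC25A26, the importer of S-adenosylmethionine for methylation inside mitochondria, had 68.9 and 71.6 CPM in RIP and 24.8 and 25.6 CPM in input (2.79-fold, log2 1.48, SE 0.0807, edgeR adjusted p = 1.3e-10; length-corrected 1.19). SLC25A42, which carries coenzyme A, had 17.5 and 17.9 CPM in RIP and 9.69 and 9.90 CPM in input (1.80-fold; length-corrected 0.99), and lost its call with library totals (0.12, adjusted p = 0.3298). The peroxisomal SLC25A17 was at 0.31 on the log2 scale, at -0.03 after length correction, and called lower with library totals at -0.42 (edgeR adjusted p = 0.0001138).

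On the lower side of that group, SLC25A36, a carrier of pyrimidine nucleotides, had 28.1 and 30.8 CPM in RIP, against 80.4 and 83.1 CPM in input. It fell by 1.47 on the log2 scale (SE 0.0811, edgeR adjusted p = 1.467e-10) and stood at -0.92 with length correction. SLC25A33, the other pyrimidine nucleotide carrier, was higher at 55.8 and 58.7 CPM in RIP and 31.8 and 32.2 CPM in input (log2 0.84). Its call was lost with length correction (0.05, adjusted p = 0.6142) and with library totals (0.11, adjusted p = 0.2181). SLC25A16, linked to coenzyme A transport by its yeast relative, had 10.49 and 8.43 CPM in RIP and 17.7 and 17.8 CPM in input (log2 -0.91, SE 0.124, edgeR adjusted p = 6.146e-06; length-corrected -1.25). SLC25A51, the importer of NAD, was lower as well, at 12.9 and 13.5 CPM in RIP and 22.5 and 19.8 CPM in input (log2 -0.68; length-corrected -1.20). It was the only tested carrier whose effective length differed by over 5% between the groups (1.20 times as long in RIP), so its corrected value is less certain. SLC25A32, the folate carrier, was at -0.33 (length-corrected -0.30) and lost its call without the second input library (adjusted p = 0.1047). SLC25A52 was listed at 0 in all libraries.

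Among 9 tested amino acid and carnitine carriers, 4 were higher, 3 lower and 2 in neither direction. The higher and lower shares were 44.4% and 33.3%, against 38.0% and 39.7% of all tested genes. After length correction they were 44.4% and 11.1%, against 33.6% and 34.6%. With library totals they were 22.2% and 66.7%, against 17.0% and 65.5%. The median of these carriers was 0.01 on the log2 scale, against -0.03 for all genes. SLC25A22, a glutamate carrier, had 44.5 and 47.0 CPM in RIP and 22.3 and 25.2 CPM in input (1.93-fold; length-corrected 0.83). SLC25A38, the glycine carrier needed for haem synthesis, had 103.8 and 106.9 CPM in RIP and 54.4 and 58.5 CPM in input (1.87-fold; length-corrected 0.51). SLC25A29, which takes basic amino acids, was at 0.69 on the log2 scale (length-corrected 0.41, -0.04 with library totals), and the carnitine/acylcarnitine carrier SLC25A20 at 0.31 (length-corrected -0.20, adjusted p = 0.08998; -0.42 with library totals). SLC25A20 lost its call without the first input library (edgeR adjusted p = 0.08032), without the second RIP library (0.05316) and with DESeq2 (0.06095).

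The calls of the aspartate/glutamate carriers of the malate-aspartate shuttle depended on the scale, and with TMM factors neither was called. SLC25A13 (citrin) had 83.3 and 91.1 CPM in RIP and 84.1 and 89.5 CPM in input, with the groups overlapping (log2 0.01, 95% interval -0.14 to 0.15, edgeR adjusted p = 0.9356; length-corrected 0.11), but was called lower with library totals (-0.72, adjusted p = 2.666e-07). SLC25A12 (aralar) had 24.7 and 28.3 CPM in RIP and 28.0 and 26.7 CPM in input (log2 -0.05, 95% interval -0.23 to 0.14, edgeR adjusted p = 0.6741). It was called higher after length correction (0.33, adjusted p = 0.005985) and lower with library totals (-0.78, adjusted p = 2.563e-06). Per length, SLC25A13 was the more abundant of the pair, at 27.3 ± 1.71 FPKM in RIP and 26.8 ± 1.49 FPKM in input, against 6.53 ± 0.611 and 6.65 ± 0.135 FPKM for SLC25A12 (SD, n = 2 each).

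The ornithine carrier SLC25A15, part of the urea cycle in liver, was lower at 47.0 and 48.3 CPM in RIP and 63.7 and 61.5 CPM in input (log2 -0.39), with no call after length correction (-0.01, adjusted p = 0.9218). SLC25A44, the branched-chain amino acid carrier, was at -0.45 (-0.18 after length correction, adjusted p = 0.1094). SLC25A18, a second glutamate carrier, ranked among the 6 largest falls on 5 and 6 fragments in RIP and 19 and 11 in input (log2 -1.24, SE 0.527, edgeR adjusted p = 0.04223; length-corrected -1.64). It lost the call with DESeq2 (adjusted p = 0.2527), with no count filter (0.07472) and without the first input library (0.3151), the first RIP library (0.2021) or the second RIP library (0.1381). SLC25A2, another ornithine carrier, had no fragment in RIP and 5 and 1 in input, and was not tested.

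Members with less settled roles were higher in 4 of 6 tested cases and lower in 2 (66.7% and 33.3%, against 38.0% and 39.7% of all tested genes). SLC25A48 had 4.17 and 3.87 CPM in RIP and 1.40 and 1.54 CPM in input, a 2.73-fold rise that lost its call with length correction (0.44, adjusted p = 0.109). It has the shortest effective length among the tested carriers, 0.372 times the median gene. SLC25A45 was at 0.999 on the log2 scale (length-corrected 0.67) and SLC25A35 at 0.84 (length-corrected 0.76). Both lost the call with library totals (0.27, edgeR adjusted p = 0.1616, and 0.11, 0.5333). SLC25A43 was at 0.35 and lost its call without the first RIP library (edgeR adjusted p = 0.05546), the second RIP library (0.1799) or the second input library (0.1602), with DESeq2 (0.178) and with length correction (0.3845). It stood at -0.38 with library totals. SLC25A46, a protein of the outer membrane that acts in mitochondrial shape, was lower at 45.0 and 42.8 CPM in RIP and 60.1 and 64.5 CPM in input (log2 -0.50; length-corrected -0.81). SLC25A53 fell by 0.62 on the log2 scale. It has the longest transcript of the tested carriers, 2.24 times the median gene, and stood at 0.24 with length correction. The call was lost with length correction (edgeR adjusted p = 0.3594) and with DESeq2 (adjusted p = 0.1326). It was lost too with limma on log2(FPKM + 0.1) (adjusted p = 0.0604) and on log2(FPKM + 1) (0.05024). Without the first RIP library (log2 -0.36) or the first input library (-0.55) the call was also lost. SLC25A34 and SLC25A47 had at most 9 fragments in any library and were not tested.

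Levels per length were uneven across the family. The 6 carriers with the highest input FPKM were SLC25A5, SLC25A3, SLC25A39, SLC25A1, SLC25A11 and SLC25A10, from 461.4 ± 4.09 FPKM for SLC25A5 down to 44.8 ± 2.78 for SLC25A10 (SD, n = 2), and the next carrier, SLC25A38, stood at 27.1 ± 1.73. In RIP the same 6 led, at 1148 ± 0.361, 540.0 ± 1.60, 397.8 ± 2.63, 298.0 ± 1.80, 194.7 ± 12.5 and 140.4 ± 4.21 FPKM. In input the libraries of the neighbours SLC25A39 and SLC25A1 overlapped (92.2 ± 10.4 and 83.2 ± 11.2 FPKM). Together these 6 held 75.6% and 75.2% of the carrier fragments in RIP, against 57.3% and 57.8% in input. All 6 rose at least 2-fold, as 17.5% of all tested genes did. The other 36 tested carriers divided into 18 higher and 14 lower, around a median of 0.16. Of all tested genes 38.0% were higher and 39.7% lower, around a median of -0.03. After length correction the 6 were still called higher, at 0.42 (SLC25A5), 0.53 (SLC25A3), 1.39 (SLC25A39), 1.09 (SLC25A1), 0.97 (SLC25A11) and 1.17 (SLC25A10), and the median of the other 36 was -0.02. With library totals only SLC25A39 (1.36) and SLC25A1 (1.10) of the 6 reached 2-fold. Across the 42 carriers the fold change and the input FPKM had a Spearman rho of 0.421, and the length-corrected change and input FPKM one of 0.296. These are descriptions across genes that share the same 4 libraries, and the input level enters both sides.

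**Figure D3:**
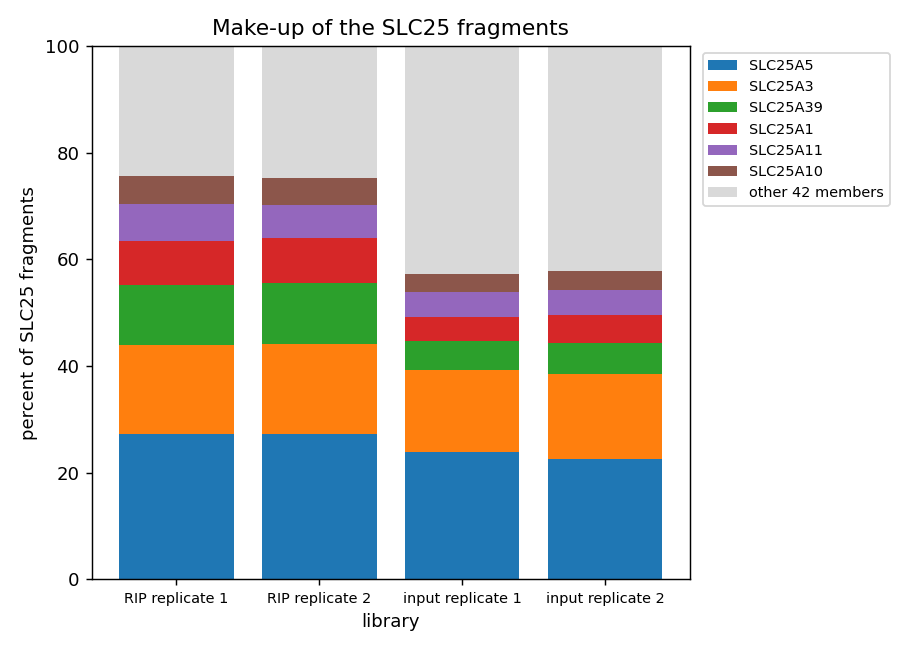
Percent of all SLC25 fragments taken by the 6 most abundant carriers and by the other 42 members in each library, RIP libraries left of input libraries. SLC25A39 took 11.4% and 11.5% in RIP and 5.35% and 5.86% in input, and the grey remainder is smaller in both RIP libraries.

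The whole family took 0.401% ± 0.000511 of all fragments in RIP and 0.318% ± 0.00794 in input (SD, n = 2 each), a ratio of 1.26. As a share of the FPKM sum the order was the other way, 0.246% ± 0.000951 in RIP and 0.293% ± 0.00256 in input, a ratio of 0.839. With 2 libraries a group, the smallest p of a two-sided exact permutation test is 0.33, so the shares are given as values.

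Shorter carriers tended to have higher fold changes. The Spearman correlation of fold change with effective length over the 42 tested carriers was -0.433, against -0.601 over all tested genes. Of the 21 shorter carriers 15 were higher and 5 lower, and of the 21 longer ones 9 were higher and 9 lower. Of all tested genes, whatever their length, 38.0% were higher and 39.7% lower. Shares among genes of like length were not computed, so the split is not read as a trait of the carriers. The median carrier had 0.795 times the length of the median tested gene. The order of the carriers was largely kept by the correction (Spearman rho = 0.902 between the 2 sets of values). With the trend taken out, SLC25A23 and SLC25A4 stood at 1.67 and 1.59, whereas SLC25A27, SLC25A37, SLC25A16 and SLC25A51 stood at -1.86, -1.43, -1.25 and -1.20.

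**Figure D4:**
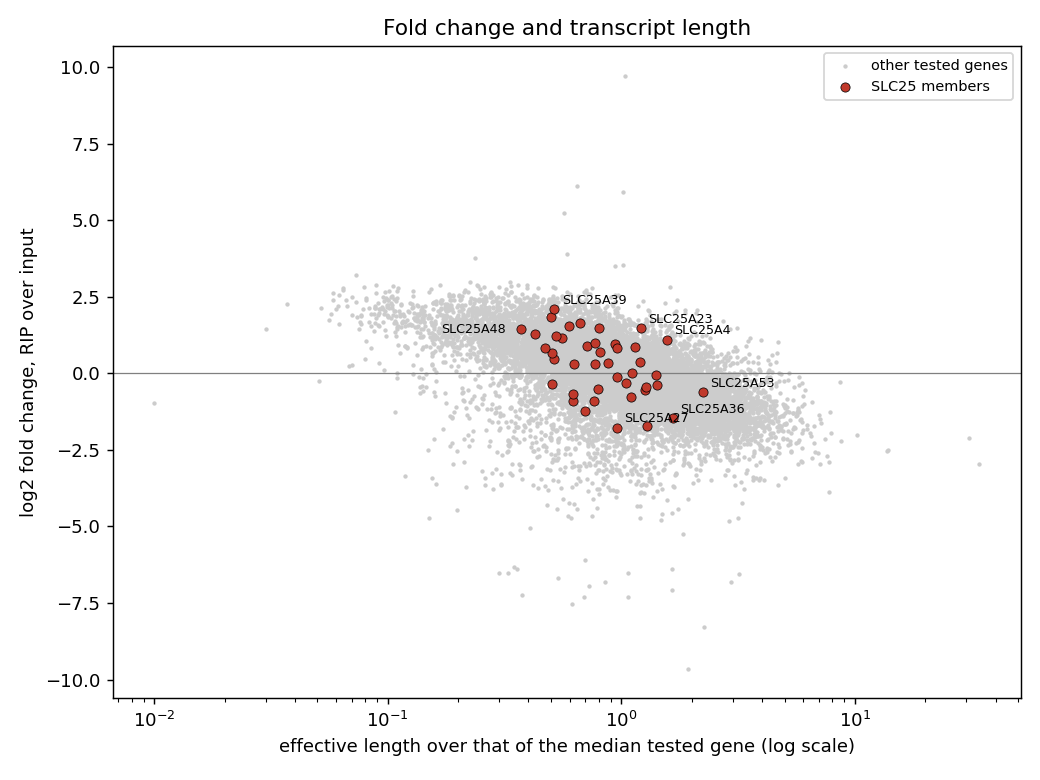
Log2 fold change, RIP over input, against effective length relative to the median tested gene (log axis) for all tested genes (grey) and the 42 tested carriers (red, some named). Carriers follow the downward slope of all genes, with SLC25A23 and SLC25A4 on its upper side and SLC25A27 on its lower side.

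Pairs of related carriers were compared by the ratio of their fragments within each library, which no scaling between libraries can change. The 10 pairs were chosen by relation after the values had been seen, and no test was run on them. SLC25A39 outnumbered SLC25A40 by 50.7 and 52.6 to 1 in RIP, against 6.49 and 7.55 to 1 in input. The difference of their log2 fold changes was 2.88, and 2.10 after length correction (SE 0.13 each, taking the 2 genes' errors as independent). SLC25A33 was in excess over SLC25A36 at 1.98 and 1.90 in RIP and in deficit at 0.396 and 0.387 in input (difference 2.31, length-corrected 0.96). The same change of order was seen for SLC25A23 over SLC25A24, with ratios of 3.60 and 3.27 in RIP and 0.805 and 0.891 in input (difference 2.02, length-corrected 1.97). These 2 transcripts have nearly equal effective lengths, 1.21 and 1.26 times the median gene.

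For the mitoferrins, SLC25A28 over SLC25A37, the ratios were 2.03 and 1.67 in RIP and 0.599 and 0.633 in input (difference 1.58, length-corrected 1.38). For SLC25A42 over SLC25A16 they were 1.67 and 2.12 in RIP and 0.547 and 0.556 in input, where the longer of the pair is the one that rose (difference 1.76, length-corrected 2.24). SLC25A14 over SLC25A30 gave 4.57 and 5.13 in RIP and 0.915 and 1.26 in input. The difference was 2.17, and 1.20 after length correction, with lengths of 0.517 and 1.29 times the median gene. SLC25A25 over SLC25A24 gave 0.759 and 0.606 in RIP and 0.349 and 0.364 in input (difference 0.93, length-corrected 0.88). In the remaining pairs the uncorrected ratios differed less between the groups. SLC25A12 over SLC25A13 gave 0.297 and 0.311 in RIP and 0.333 and 0.299 in input, so the groups overlapped. SLC25A10 over SLC25A11 gave 0.781 and 0.821 in RIP and 0.758 and 0.734 in input (difference 0.10, SE 0.10). SLC25A5 over SLC25A4 gave 15.0 and 17.4 in RIP and 14.2 and 13.7 in input, a difference of 0.21 that turned to -1.17 after length correction (SE 0.11 each).

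**Figure D5:**
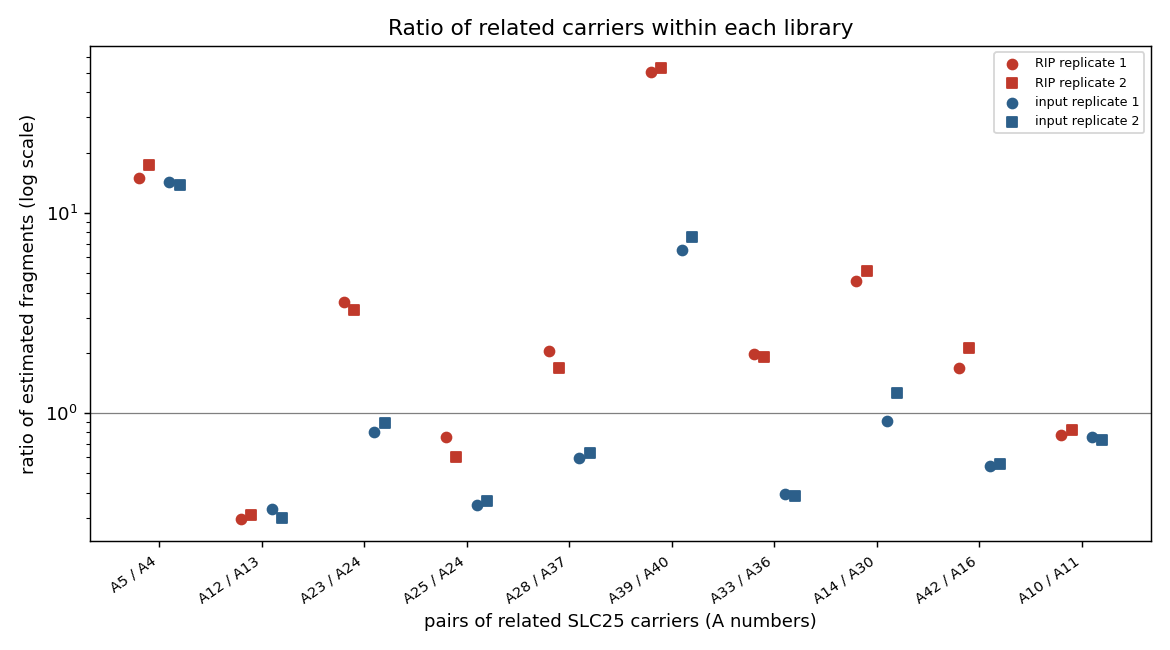
Ratio of estimated fragments (log axis) of 10 pairs of related carriers, named by their A numbers, in each RIP library (red) and each input library (blue), a circle for replicate 1 and a square for replicate 2. A39 over A40 stands at 50.7 and 52.6 in RIP and 6.49 and 7.55 in input, while A12 over A13 overlaps between the groups.

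Genes that work beside the carriers were read from a list of 38 table entries, of which 37 were tested, 22 higher and 11 lower (59.5% and 29.7%, against 38.0% and 39.7% of all tested genes). The median was 0.42. After length correction it was 0.03, with 16 higher and 12 lower (43.2% and 32.4%, against 33.6% and 34.6% of all genes). With library totals 12 were higher and 24 lower (32.4% and 64.9%, against 17.0% and 65.5% of all genes). The median was then -0.31, against -0.76 for all genes. Of 10 genes for the insertion of carriers, 8 were higher and TOMM70A was lower at -0.42, while AGK was not called at -0.02 (median 1.002). TOMM70A and AGK were named after their values had been seen. After length correction 5 were higher and 0 lower (median 0.21), and with library totals 6 were higher and 3 lower (median 0.27). TIMM13, a small chaperone of the intermembrane space, had 614.1 and 601.5 CPM in RIP and 101.4 and 110.5 CPM in input (5.74-fold; length-corrected 2.05). TIMM10, a chaperone that escorts carriers, had 148.3 and 147.3 CPM in RIP and 30.3 and 36.1 CPM in input (4.46-fold; length-corrected 0.62). TIMM8B, a further small chaperone, had 234.0 and 221.0 CPM in RIP and 67.2 and 68.0 CPM in input (3.37-fold; length-corrected 0.41).

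Of 4 tested family members under other symbols, 3 were higher and 1 lower. MTCH1 had 473.4 and 431.0 CPM in RIP and 177.1 and 188.6 CPM in input (2.47-fold; length-corrected 0.99), and MTCH2, an insertase of the outer membrane, had 191.7 and 194.6 CPM in RIP and 129.8 and 130.5 CPM in input (1.48-fold, length-corrected 0.41, but -0.16 on the log2 scale with library totals). UCP2, an uncoupling protein homologue, was 2.52-fold higher (length-corrected 0.67). UCP3, its muscle counterpart, had 1 and 2 fragments in RIP and 23 and 10 in input. It was lower at an edgeR adjusted p of 0.001052 (length-corrected -3.46 against -3.17 uncorrected), and at 0.01587 with DESeq2. That call rests on few fragments, most of them in the first input library. Without that library UCP3 fell below the count filter and was not tested. Of 20 other inner-membrane transport genes, 9 were higher and 8 lower (45.0% and 40.0%, against 38.0% and 39.7% of all tested genes). Their median was -0.03, and that of all genes was also -0.03. The mitochondrial pyruvate carrier genes MPC1 and MPC2 were 2.72-fold and 2.87-fold higher (0.24 and 1.20 length-corrected), and C22orf32, which codes for a subunit of the calcium uniporter, was 4.01-fold higher (1.29 length-corrected). GHITM was at 0.22, and at -0.03 (adjusted p = 0.7192) with length correction and -0.52 with library totals.

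The outer-membrane channels VDAC1, VDAC2 and VDAC3 were at -0.22, 0.56 and 0.38 on the log2 scale. With length correction all 3 were lower, at -0.66, -0.23 and -0.36, and with library totals too, at -0.95, -0.17 and -0.35. VDAC1 lost its call without the first RIP library (edgeR adjusted p = 0.2437) and without the second input library (0.05515). Solute carriers of all other families were read the same way. Of 316 such entries, 204 were tested, 55 higher and 96 lower (27.0% and 47.1%, against 38.0% and 39.7% of all tested genes). The median of these other solute carriers was -0.26, against -0.03 for all genes. Their median length was 1.16 times that of the median tested gene. After length correction their median was -0.13, with 53 higher and 76 lower, against 18 higher and 12 lower among the 42 SLC25 carriers. No test of the difference between these lists was run.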

How the data were processed

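RNA was measured in 2 RIP and 2 input libraries of HEK293T cells. The submitters' processing notes name Cuffdiff 2.2.1, TopHat2 2.0.13, Bowtie2 2.2.6 and cutadapt 1.5, and build hg19. Annotation, strand setting and the handling of multi-position reads are not stated. The deposited table of 23615 genes holds the authors' expected counts (fragments estimated per gene, 97.94% of them whole), a scaled signal and FPKM. The scaled signal is those counts over 1 factor per library (0.93 and 0.9434 in RIP, 1.123 and 1.037 in input). These factors do not follow the library totals. FPKM are the authors' values per transcript length and follow the scaled signal. Replicates 0 and 1 of the table were read as 1 and 2 of the labels.

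Counts were rounded and summed to 25655455 and 25998032 in RIP and 18131602 and 17310753 in input. Genes passing filterByExpr (minimum count 10, total 15) were fitted in R 4.3.3 by edgeR 4.0.16 (TMM, quasi-likelihood F test, group as the only term, Benjamini-Hochberg over all 14555 tested genes, threshold 0.05). An SE is the log2 fold change over the square root of F, and a 95% interval is 1.96 SE either side. Effective length is scaled signal over FPKM, relative to the median tested gene. Its trend with the fold change (lowess, span 0.3) was taken out as offsets in a second fit. Alternatives were library totals, RLE factors, DESeq2 1.42.0, no filter, a replicate block, limma 3.58.1 on log2(FPKM + 1) and log2(FPKM + 0.1), leaving out the 10 most abundant genes, and leaving out each library. On simulated counts (14286 genes) edgeR recovered 98% of 2-fold rises and 93.8% of 2-fold falls. It recovered 78% of 1.5-fold rises and 69.4% of 1.5-fold falls, and 6.7% of calls fell on unchanged genes. The simulation changed only a small part of the genes, as many up as down, with the same spread for all and no length trend. In the data 77.7% of tested genes were called, so these rates may not hold for this comparison.

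The members and lists were chosen with earlier results of these data known, and the carrier pairs after the members' values had been seen. Named were all entries whose symbol is SLC25A and a number, in full the 6 largest rises and falls, the 6 most abundant and the ADP/ATP carriers, plus the 2 most abundant and 2 most changed genes of each partner group. The labels do not say whether RIP and input of the same replicate number came from the same cells. Deviations of same-numbered libraries were nearly uncorrelated (0.0409 over tested genes), which does not settle whether they were paired. 1 tested member is counted in the totals but not reported here by name, and is left out of the plots that label each carrier, which show 41.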

Additional observations from a re-analysis of the deposited data

How the results depend on the processing

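The number of libraries (4) limits precision, a pulldown without the tag was not analysed here, and carriers with few fragments (SLC25A18, SLC25A41) have wide errors. RLE factors, leaving out the 10 most abundant genes and the replicate block kept the direction and the call of all 42 tested carriers, and no filter, log2(FPKM + 1) and log2(FPKM + 0.1) those of 41 each. DESeq2 did so for 38. Leaving out 1 library kept 37 to 40.

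Library totals gave 13 higher and 22 lower carriers, 12 and 24 partner genes, 20 and 152 other solute carriers and 2479 and 9539 of all genes. As shares these were 31.0% and 52.4% of tested carriers and 32.4% and 64.9% of partner genes. They were 9.8% and 74.5% of other solute carriers and 17.0% and 65.5% of all genes. The carrier median was 0.13 with length offsets and -0.366 with library totals. The family's share ratio was 0.839 by FPKM and 1.38 without the 10 most abundant genes.

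With length offsets the direction turned for SLC25A12 (0.332), SLC25A14 (-0.238), SLC25A17 (-0.025), SLC25A20 (-0.199), SLC25A28 (-0.048), SLC25A53 (0.239), GHITM (-0.029), VDAC2 (-0.229) and VDAC3 (-0.359). With library totals it turned for SLC25A13 (-0.723), SLC25A14 (-0.268), SLC25A17 (-0.424), SLC25A20 (-0.421), SLC25A25 (-0.351), SLC25A28 (-0.054), SLC25A29 (-0.039), SLC25A43 (-0.381), MTCH2 (-0.161), GHITM (-0.515), VDAC2 (-0.174) and VDAC3 (-0.353). Across leave-one-out fits the values of SLC25A12 ran from -0.138 to 0.055, of SLC25A13 from -0.052 to 0.076 and of SLC25A21 from -0.385 to 0.087. The cause was not tested.

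Libraries of the same replicate number showed almost no shared deviation (correlation 0.0409), and whether they were paired is not in the labels. The replicate block alone changed no call among the carriers. The replicate block with length offsets gave a median of 0.13, and SLC25A12 0.33, SLC25A14 -0.236, SLC25A17 -0.025, SLC25A20 -0.199, SLC25A28 -0.047, SLC25A53 0.231, GHITM -0.029, VDAC2 -0.227 and VDAC3 -0.358.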
